A study of Homo sapiens with 6 samples.

Results

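Claudins are small proteins with 4 membrane-spanning stretches that join neighbouring epithelial cells at the tight junction and set which ions and how much water pass between them. Some form channels, others seal the gap, and occludin, junctional adhesion molecules and the ZO scaffold proteins build the rest of the junction. In the colon CLDN2, which forms a channel for cations and water, is found mainly in the crypts, while CLDN3, CLDN4 and CLDN7 are widespread. The genes described here are 10 of the 18701 with a value in this series, namely CLDN1, CLDN2, CLDN3, CLDN4, CLDN7, CLDN12, CLDN15, OCLN, TJP1 and F11R. They were chosen by name, for their place at the junction, with the transcript levels of these same arrays and the comparisons between the groups already known. Their values are therefore given as a description. No p-value is given for any of them, and the calls of the all-gene fit are only counted, beside the share called among all genes.

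The cells were HT29-tsp53, a derivative of the human colorectal adenocarcinoma line HT-29 that carries a mouse p53 transgene with the temperature-sensitive V135A change. Every group carried the transgene. Total RNA was read on 6 Affymetrix Gene 1.0 ST arrays, 2 in each of 3 groups, and the sample labels number the experiments 1 and 2, with each group present once in both. The p53 off group stayed at the restrictive temperature, given as 38 °C in the sample labels (cells were grown at 37 °C). The p53 on group spent 16 h at 32 °C, where the transgene product is active, and the p53 on then off group was returned, after the same 16 h, to the restrictive temperature for a 6 h recovery. That return is written as 38 °C or 37 °C in most places, but the source name of both recovery samples has 32 °C. The question behind the groups is the reversal of the p53 response. The labels give no promoter for the transgene, do not say whether the line is 1 clone, and list no HT-29 cells without the transgene, so p53 activity and culture temperature cannot be told apart. The labels do not say whether the arrays of a group came from separate cultures beyond the experiment number, so the spread between them may be partly technical.

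The 2 p53 targets used to check the labels followed them. MDM2, the ubiquitin ligase that degrades p53, differed by 3.52 ± 0.20 log2 units between p53 on and p53 off and by -3.44 ± 0.20 between recovery and p53 on, and CDKN1A, which encodes the cyclin-dependent kinase inhibitor p21, by 3.21 ± 0.22 and -3.26 ± 0.22 (SE, n = 2 arrays per group, limma adjusted p between 0.00174 and 0.00774). The cold-inducible RNA-binding gene CIRBP was 1.10 ± 0.23 log2 units above control in p53 on (limma adjusted p = 0.0813, and 0.00916 with the experiment number as a block), and RBM3, of the same kind, 1.06 ± 0.42 (limma adjusted p = 0.299, and 0.00694 with the block). All 8 colon epithelial markers were bright enough to be tested, CDX2 only just, at 3.83 to 4.62. KRT19, a keratin of simple epithelia, was called higher in p53 on and after recovery than in control with the block. The mean log2 signal over these markers, compared between arrays only, was 8.76 to 9.37 in control, 9.14 to 9.63 in p53 on and 9.05 to 9.51 after recovery. Leukocyte PTPRC and CD3E, fibroblast DCN and LUM, and endothelial CDH5, VWF and KDR were under the dim value of log2 3.62 on average. The other 10 of 17 markers of these 3 cell types were above it, among them COL1A1 at 5.26 to 5.89, CD68 at 5.72 to 6.65, CD14 at 4.70 to 5.70 and TEK at 4.14 to 5.61. The mean over the whole list was 3.69 to 3.89 for fibroblasts, 4.22 to 4.51 for leukocytes and 3.65 to 4.07 for endothelium over the 6 arrays. Of these 3 lists, no marker was called without the block, and TEK, an endothelial receptor, was called lower in p53 on with it. The part of these markers and of the cold-inducible genes in the results was not tested. Signals are compared between arrays for 1 gene at a time, since probes differ in brightness.

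The promoters of 3 genes are shown because CLDN2 and CLDN4 differed most between control and p53 on, in opposite directions, while CLDN3 lies near CLDN4 and differed little. The sequences are RefSeq windows on GRCh38.p14 from 250 bases before to 50 bases after an annotated start site, on the strand of the gene. CLDN2 has a pair of annotated start sites on chromosome X, both on the plus strand, at chrX:106899914-106900213 and chrX:106918110-106918409. CLDN4 lies at chr7:73830746-73831045 on the plus strand and CLDN3 at chr7:73770221-73770520 on the minus strand, with start sites 60.7 kb apart. Capitals mark matches, on both strands, to 5 motifs: the p53 half-site consensus, the CDX motif TTTAT, the AP-1 motif TGACTCA (or TGAGTCA), the Sp1 motif GGGCGG and the E-box CACCTG. The motifs were chosen after the levels were seen.
CLDN2 first start site: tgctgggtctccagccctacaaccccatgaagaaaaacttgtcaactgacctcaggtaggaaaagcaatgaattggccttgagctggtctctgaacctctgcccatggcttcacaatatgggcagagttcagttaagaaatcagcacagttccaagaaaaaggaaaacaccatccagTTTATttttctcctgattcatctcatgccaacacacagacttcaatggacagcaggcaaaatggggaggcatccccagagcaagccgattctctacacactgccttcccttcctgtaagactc
CLDN2 second start site: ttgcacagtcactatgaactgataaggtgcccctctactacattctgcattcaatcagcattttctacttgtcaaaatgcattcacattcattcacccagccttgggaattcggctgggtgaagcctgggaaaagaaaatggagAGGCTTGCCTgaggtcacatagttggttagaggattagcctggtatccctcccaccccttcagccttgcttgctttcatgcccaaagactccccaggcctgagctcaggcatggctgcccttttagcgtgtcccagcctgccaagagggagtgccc
CLDN4: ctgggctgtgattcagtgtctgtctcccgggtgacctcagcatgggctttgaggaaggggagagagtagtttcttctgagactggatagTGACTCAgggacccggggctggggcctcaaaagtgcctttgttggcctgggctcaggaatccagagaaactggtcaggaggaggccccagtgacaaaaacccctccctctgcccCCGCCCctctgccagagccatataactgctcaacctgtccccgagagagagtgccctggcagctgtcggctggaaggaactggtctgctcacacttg
CLDN3: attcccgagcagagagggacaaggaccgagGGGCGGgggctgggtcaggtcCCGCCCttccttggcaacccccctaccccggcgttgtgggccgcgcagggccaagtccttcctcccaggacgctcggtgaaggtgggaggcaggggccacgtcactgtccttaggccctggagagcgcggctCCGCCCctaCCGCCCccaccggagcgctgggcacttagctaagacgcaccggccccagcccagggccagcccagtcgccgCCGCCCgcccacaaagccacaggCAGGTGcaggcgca

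The first CLDN2 window held a CDX motif 73 bases before the start site, a motif present in 34.9% of the 35116 promoter windows in the table. The second held a p53 half-site match, AGGCTTGCCT, 106 bases before the start site, and 6.63% of windows held such a match. The CLDN4 window held an AP-1 motif 161 bases before the start site (4.95% of windows) and an Sp1 motif 47 bases before it (44.95% of windows). The CLDN3 window held 5 Sp1 motifs, 4 of them before the start site, and 1 E-box 36 bases after it (20.6% of windows). Windows of 9 of the 10 genes were in the table, 15 in all, and F11R was not among them. Among these 15, Sp1 motifs were in 9 windows, E-boxes in 5, p53 half-sites and CDX motifs in 3 each, and AP-1 motifs in 2. No match overlapped another in the 4 windows shown. They are letters in a window, and binding was not measured.

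CLDN2 had the widest range of the 10 genes across the groups. Its log2 signal was 10.07 in p53 off, 7.81 in p53 on and 8.87 after recovery in experiment 1, and 9.51, 7.71 and 8.92 in experiment 2. The groups did not overlap: both p53 on arrays lay lowest, both recovery arrays in the middle and both control arrays highest. The share of all genes with such an order is not given. Nothing is therefore read from the order of the arrays, for CLDN2 or for the genes below. The level in p53 on was 4.09-fold lower than in control, a log2 difference of -2.03 ± 0.24 (SE, n = 2 arrays per group), with -2.26 in experiment 1 and -1.81 in experiment 2. In bulk RNA, fewer cells with the transcript and less of it per cell cannot be told apart. After 6 h of recovery it was 1.14 ± 0.24 log2 units above p53 on, and it lay at -1.20 and -0.59 against control in the 2 experiments (-0.90 ± 0.24). On the log2 scale, 46.7% of the difference was regained in experiment 1 and 67.6% in experiment 2.

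CLDN15, which like CLDN2 forms a cation channel in the intestine, did not share that pattern. Its log2 signal was 4.95 in p53 off, 4.79 in p53 on and 5.20 after recovery in experiment 1, and 5.27, 5.24 and 5.22 in experiment 2. All 3 groups overlapped, and the difference between p53 on and p53 off was -0.10 ± 0.24 log2 units. These signals were low, near the lowest array median of 5.24. Differences of single probe sets between p53 on and p53 off ran from -1.32 to 0.91, so CLDN15 was weakly measured.

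CLDN4, a barrier claudin that limits sodium passage, differed in the opposite direction. Its log2 signal was 8.68 in p53 off, 9.58 in p53 on and 8.73 after recovery in experiment 1, and 8.11, 9.02 and 8.25 in experiment 2. Both p53 on arrays were above every control and recovery array, while control and recovery overlapped. The difference between p53 on and p53 off was 0.90 in experiment 1 and 0.91 in experiment 2. In the fit it was 1.87-fold (0.90 ± 0.31 log2 units, SE). The median came from 1 probe set in the experiment 1 control and from another on every other array. Within the first the differences were 0.94 and 0.67, and within the second 0.59 and 0.91. The likeness of 0.90 and 0.91 was thus not present within either probe set. Experiment 2 read 0.48 to 0.58 log2 units lower than experiment 1 in each group. With the experiment number as a block the SE was 0.17. In recovery CLDN4 was 0.81 ± 0.31 log2 units below p53 on. On the log2 scale, 94.96% of the difference was lost again in experiment 1 and 84.7% in experiment 2. The experiment 1 share mixes the 2 probe sets, so it is not exact. Against control, recovery lay at 0.08 and -0.24 within the first probe set and at -0.27 and 0.14 within the second.

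**Figure D1:**
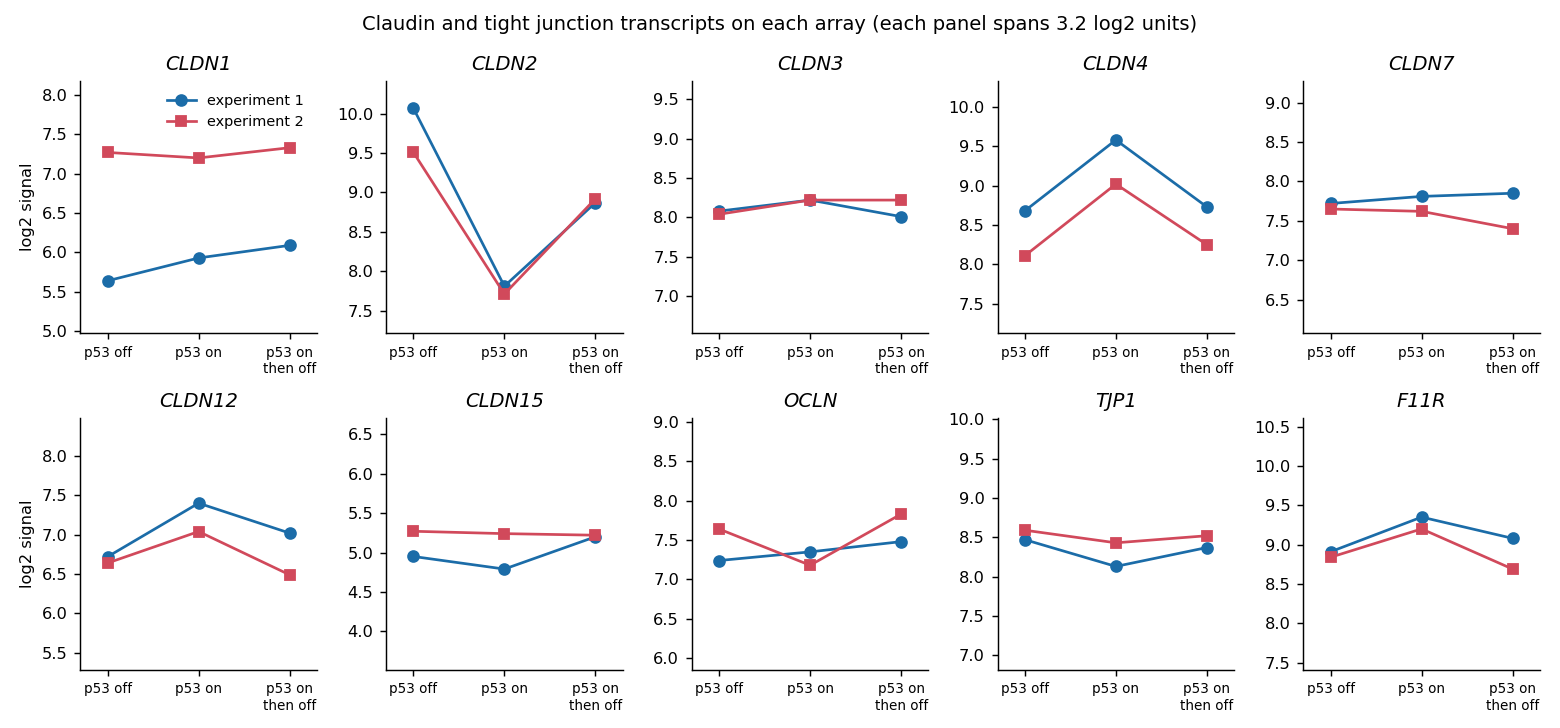
Log2 signal of each of the 10 genes (vertical axis, 3.2 log2 units in every panel) in the p53 off, p53 on and p53 on then off groups (horizontal axis), with a line for each experiment and a point for each array. CLDN2 dips from 10.07 and 9.51 to 7.81 and 7.71 and regains part of it, CLDN4 peaks at 9.58 and 9.02, and the 2 lines of CLDN1 stay at least 1.24 log2 units apart.

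The other sealing claudins differed little between the groups. CLDN3, a sealing claudin next to CLDN4 on chromosome 7, read 8.08 in p53 off, 8.22 in p53 on and 8.01 after recovery in experiment 1, and 8.04, 8.22 and 8.22 in experiment 2. The p53 on arrays were above the control arrays by 0.14 and 0.18 log2 units (0.16 ± 0.19 in the fit), and recovery overlapped both. CLDN7, which binds the adhesion protein EPCAM, read 7.72, 7.81 and 7.85 in experiment 1 and 7.65, 7.62 and 7.40 in experiment 2, in the same order of groups. Its groups overlapped, and its difference between p53 on and p53 off was 0.03 ± 0.23.

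CLDN1, which is needed for the barrier of skin, differed between the experiments and not in a common direction with p53. Its log2 signal was 5.64 in p53 off, 5.93 in p53 on and 6.09 after recovery in experiment 1, and 7.27, 7.20 and 7.33 in experiment 2. All 3 arrays of experiment 2 were above all 3 arrays of experiment 1, by 1.63, 1.27 and 1.24 log2 units. Between p53 on and p53 off the difference was 0.29 in experiment 1 and -0.08 in experiment 2, and its SE was 0.67 without the block and 0.18 with it.

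CLDN12 and F11R were also highest in p53 on, by less than CLDN4. CLDN12, a claudin without the usual PDZ-binding end, read 6.72 in p53 off, 7.40 in p53 on and 7.02 after recovery in experiment 1, and 6.64, 7.04 and 6.49 in experiment 2. Both p53 on arrays were above the other 4 arrays, the lower of them only just, and the difference from control was 0.54 ± 0.25 log2 units. F11R, which encodes the junctional adhesion molecule JAM-A, read 8.91, 9.35 and 9.08 in experiment 1 and 8.84, 9.20 and 8.69 in experiment 2, in the same order. Its p53 on arrays were above the other 4 arrays too, with differences of 0.45 and 0.35 from control (0.40 ± 0.22) and of -0.28 and -0.51 between recovery and p53 on (-0.39 ± 0.22).

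OCLN, which encodes occludin, read 7.24 in p53 off, 7.35 in p53 on and 7.48 after recovery in experiment 1, and 7.64, 7.18 and 7.83 in experiment 2. The experiments differed in sign between p53 on and p53 off, at 0.11 and -0.46 (-0.17 ± 0.24), and the recovery value was the highest of the 3 in both. A pseudogene of OCLN lies on the same chromosome, and whether its transcripts reach these probe sets was not tested. TJP1, which encodes the scaffold protein ZO-1 that ties claudins to actin, read 8.47, 8.13 and 8.37 in experiment 1 and 8.59, 8.43 and 8.52 in experiment 2. Both p53 on values were below both control values, but by 0.34 and 0.16 log2 units only (-0.25 ± 0.21), and the recovery arrays overlapped both groups.

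**Figure D2:**
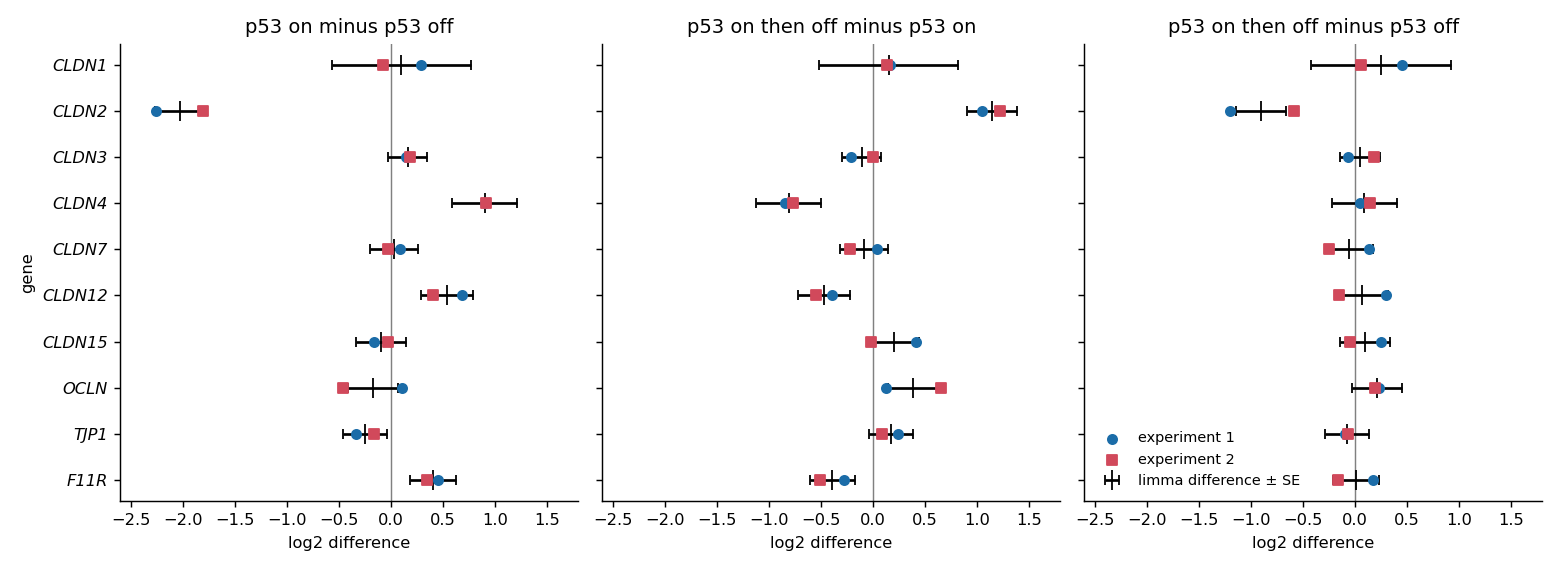
Log2 differences between groups (horizontal axis) for each gene (vertical axis), within experiment 1 (circles) and experiment 2 (squares). The tick is the limma difference and the bar its SE (n = 2 arrays per group), from the fit that ignores the pairing by experiment. For CLDN1 that SE was 0.67, against 0.18 with the experiment number as a block. CLDN2 lies at -2.26 and -1.81 in the left panel and still at -1.20 and -0.59 in the right one, while CLDN4 returns to 0.05 and 0.14.

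Across the whole set, 4 genes were higher in p53 on than in p53 off in both experiments (CLDN3, CLDN4, CLDN12 and F11R), 3 were lower in both (CLDN2, CLDN15 and TJP1) and 3 differed in sign between the experiments. Among all 14025 genes tested, 33.45% were higher and 31.6% lower in both experiments. The median difference was 0.07 log2 units over the 10 genes and 0.02 over all genes tested, so the set had no common direction. CLDN2 was the only 1 of the 10 that the all-gene fit called (limma, adjusted p under 0.05, no minimum fold), as lower in p53 on. Of all genes tested, 0.585% were called lower and 0.898% higher. When the experiment number entered as a replicate block, CLDN2 was again called lower and CLDN4 was called higher, where 6.28% of all genes were called lower and 5.18% higher. Because the genes were named with this contrast known, nothing is read from these counts. Other settings of the fit reuse the same 6 arrays, so nothing is read from them either. The call of CLDN2 was kept in 7 of 8 of them. It was lost in the fit of only the 2 groups compared, where 50 of all genes were called, against 208 in the main fit. It was also lost in each of the 6 fits that left out 1 array, with its difference between -2.31 and -1.75. Leaving out a recovery array repeats the fit of only the 2 groups compared, so those losses are not separate ones.

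Between recovery and p53 on, limma called none of the 10 without the block, and 2 had an unadjusted p under 0.05, as had 12.3% of all genes tested. Of all genes, 0.143% were called higher and 0.285% lower. With the block CLDN2 was called higher and CLDN4 lower, where 3.84% of all genes were called higher and 3.39% lower. This comparison and the first share the p53 on arrays. Between recovery and p53 off none of the 10 was called in limma without or with the block, where 0.0285% and 0.599% of all genes were called. An unadjusted p under 0.05 was found for 1 of the 10 in each fit, and for 746 of all 14025 genes without the block and 1821 with it. The median absolute difference of the 10 genes from control was 0.21 log2 units in p53 on and 0.09 after recovery, against 0.25 and 0.18 over all genes tested, and CLDN2 at -0.90 was the member farthest from control after recovery.

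The array reads each gene with several probe sets, which sit at different places along the transcript and are not replicates. For CLDN2, 5 of 7 probe sets were over 1 log2 unit lower in p53 on in both experiments, and 4 of these were above the dim value on every array, with differences of -2.61 to -2.26 in experiment 1 and -2.03 to -1.45 in experiment 2. The fifth read 5.76 and 6.13 in control and 2.77 and 3.96 in p53 on, the first of these under the dim value, so its difference in experiment 1 has no exact size. The other 2 probe sets had low control signals of 4.55 to 5.08 and differences between -0.67 and 0.54. The median that stands for CLDN2 was the same 1 probe set on all 6 arrays. All 5 probe sets of CLDN4 and all 6 of CLDN12 were higher in p53 on in both experiments, as were 15 of 18 for F11R. After recovery, 17 of 18 for F11R were lower than in p53 on in both experiments. These 17 include the 2 that were already lower in p53 on than in control in both, so not all of them rose first. For TJP1, 24 of 32 probe sets were lower in p53 on in both experiments and 0 were higher in both, although the gene's difference was only -0.25. CLDN3 had 3 probe sets, 1 of them higher in both, and CLDN7 had 3 of 11 higher and 2 lower. Of the 8 probe sets of CLDN15, 2 were higher and 0 lower in both, although its median was lower in both, and OCLN had 2 of 9 in each direction. The higher level of CLDN1 in experiment 2 was present in all 3 groups in 6 of its 8 probe sets.

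**Figure D3:**
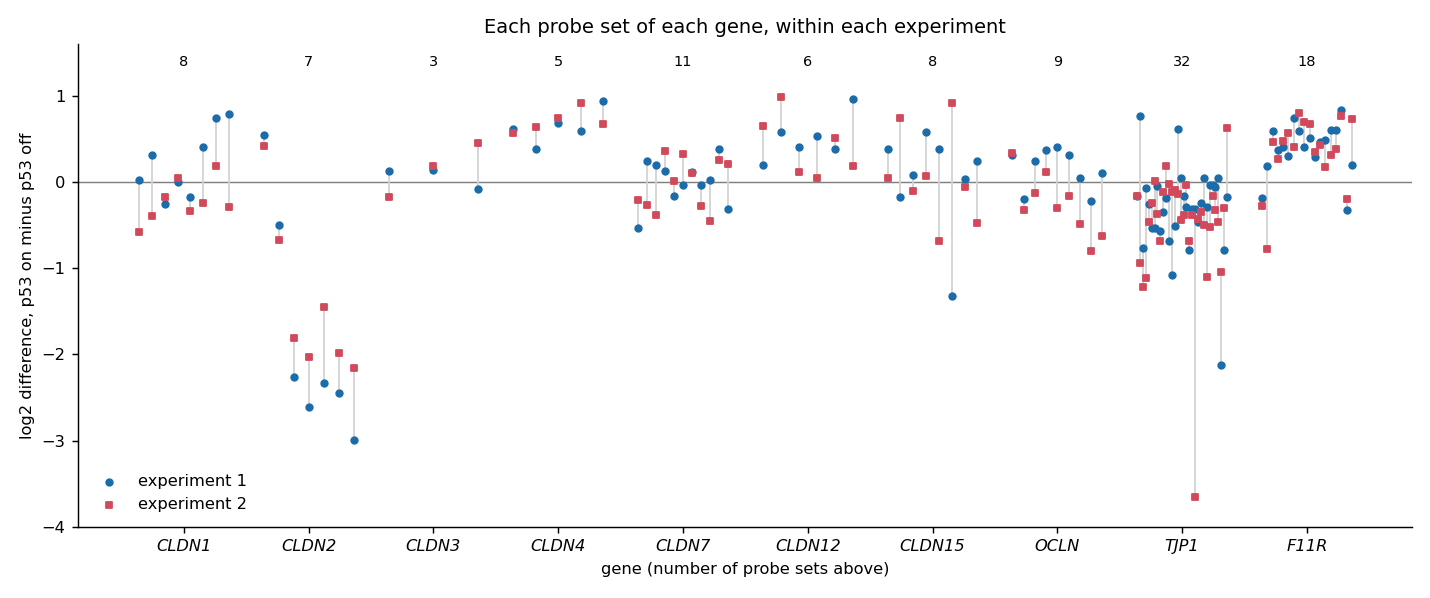
Log2 difference between p53 on and p53 off (vertical axis) for every probe set of each gene (horizontal axis, number of probe sets printed above), in experiment 1 (circles) and experiment 2 (squares), joined by a line. Of the 7 CLDN2 probe sets, 4 lie between -2.61 and -1.45, and the lowest point, from a p53 on signal of 2.77, rests on a level under the dim value. The 5 of CLDN4 all lie above 0, and most of the 32 of TJP1 lie below 0, and its lowest point rests on a p53 on signal of 3.18, also under the dim value.

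Other genes of cell junctions were read from 6 lists of 93 genes that are not among the 10, of which 86 had a value and 66 were tested. These lists were made by function, not by how their genes moved, but with earlier results of these data known. In p53 on, 1 of the 66 was called higher and 0 lower in limma, against 1.48% of all genes called either way. An unadjusted p under 0.05 was found for 12 of the 66 and for 15.4% of all genes. With the block 6 were called higher and 2 lower, against 11.5% of all genes either way. These counts lie near the shares over all genes. Their median was 0.11 log2 units, against 0.02 over all genes. The 1 call was PVRL4, the older symbol of NECTIN4, a nectin adhesion protein of the adherens junction. Its log2 signal was 4.94 in p53 off, 6.05 in p53 on and 5.09 after recovery in experiment 1, and 4.87, 6.11 and 5.04 in experiment 2. Both p53 on arrays stood apart from the other 4, and PVRL4 rose by 1.17 ± 0.19 log2 units (SE, n = 2 arrays per group, limma adjusted p = 0.0435, and 0.00457 with the block). The call was lost without any 1 of the 6 arrays, where leaving out a recovery array repeats the fit of only the 2 groups compared.

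Other nectins differed in direction. PVRL1 was 0.67 ± 0.19 above control (limma adjusted p = 0.159, and 0.0391 with the block), and PVRL3, named after its values were seen, was at -0.75 ± 0.24 (limma adjusted p = 0.203, and 0.036 with the block). Of the 12 adherens junction genes, 2 were called higher and 1 lower with the block, and the median was 0.24. The cadherin CDH1, which holds the adherens junction together and is named for that role, read 9.22, 9.04 and 8.80 in experiment 1 and 9.0, 9.05 and 8.79 in experiment 2, a difference of -0.06 between p53 on and control.

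Among 18 tested genes of the tight junction plaque and cell polarity, 0 were called in limma without the block, with 5 at an unadjusted p under 0.05, and 4 were called higher and 1 lower with it. AMOTL1, an angiomotin-like scaffold protein, read 3.43 in p53 off, 5.79 in p53 on and 3.70 after recovery in experiment 1. In experiment 2 it read 4.23, 5.14 and 4.0. The fitted difference between p53 on and control was 1.64 ± 0.34 (limma adjusted p = 0.0809, and 0.0119 with the block). Within the experiments this difference was 2.36 in experiment 1 and 0.91 in experiment 2. The experiment 1 control was under the dim value, so neither 2.36 nor 1.64 is an exact size. Both recovery signals of AMOTL1 lay near the dim value. MAGI3, a membrane-associated scaffold, read 6.96, 6.14 and 6.96 in experiment 1 and 7.33, 6.34 and 7.41 in experiment 2 (-0.90 ± 0.25, limma adjusted p = 0.147, and 0.0139 with the block). Both p53 on arrays were the lowest for MAGI3 and the highest for AMOTL1, and both genes were called in the opposite direction after recovery with the block. The other 3 calls with the block, named after their values were seen, were TJP3, which encodes the scaffold ZO-3, at 0.81 ± 0.33, the cingulin paralogue CGNL1 at 0.71 ± 0.25 and TJAP1 at 0.67 ± 0.20 (limma adjusted p between 0.178 and 0.306 without the block and between 0.0218 and 0.0484 with it).

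**Figure D4:**
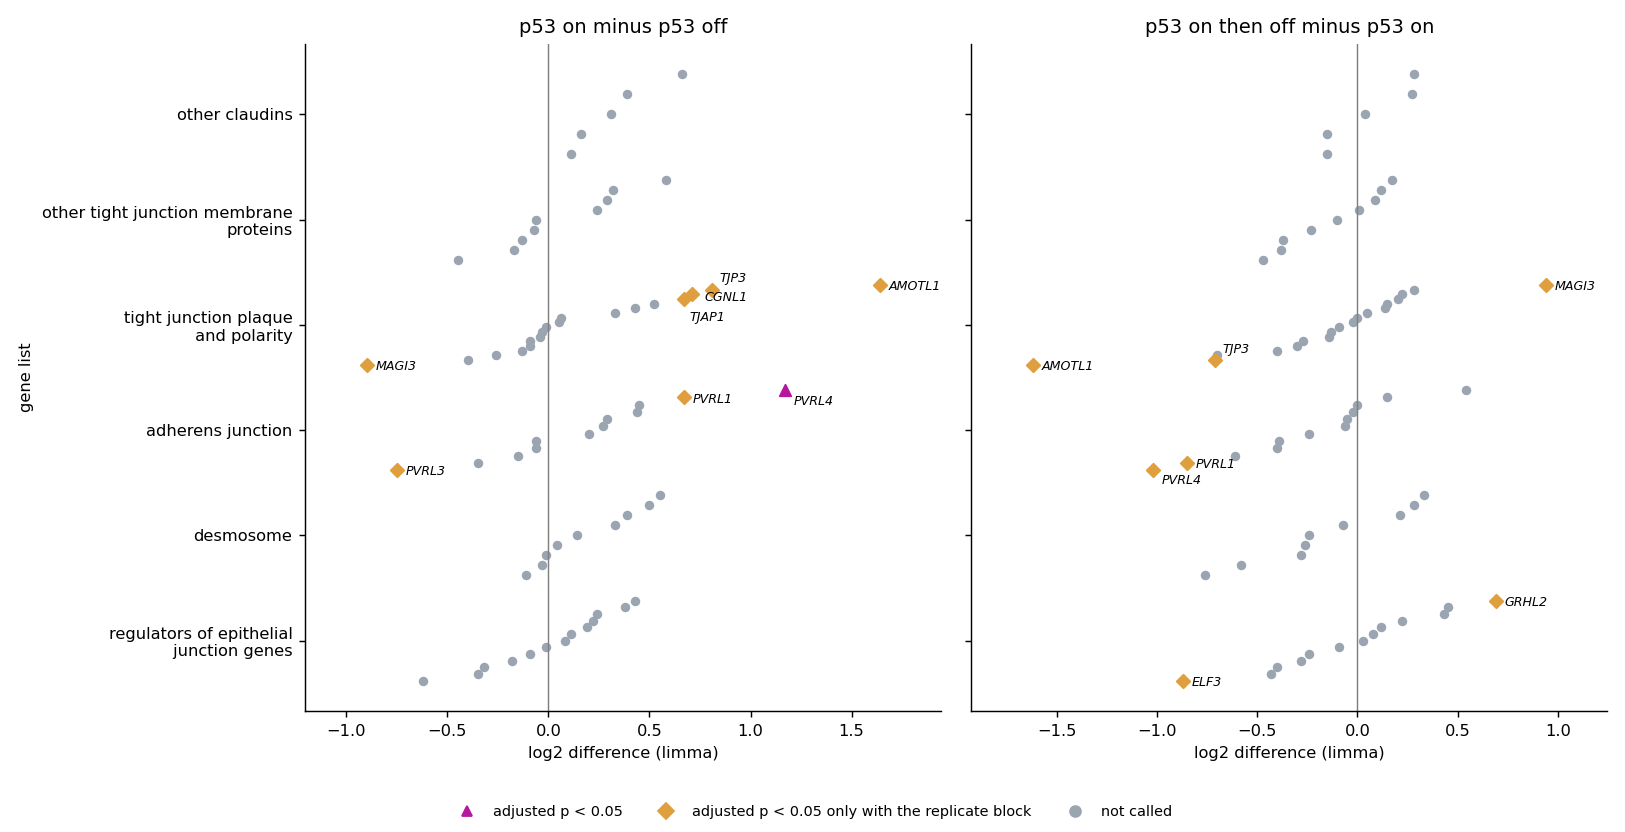
Limma log2 differences (horizontal axis) of the 66 tested genes of the 6 junction lists (vertical axis, sorted within a list) for p53 on minus p53 off and for recovery minus p53 on, with triangles for an adjusted p under 0.05, diamonds for calls made only with the replicate block and circles for the rest. PVRL4 at 1.17 is the only triangle, and AMOTL1 and MAGI3 lie on opposite sides of 0 in both panels.

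Among tested genes the remaining lists held no call in p53 on with limma, without or with the block. Of 14 other claudins with a value, 9 were under the dim value on average and 5 were tested, with 1 at an unadjusted p under 0.05. CLDN11, a claudin of myelin and of the testis, differed by 0.66 ± 0.26 (limma adjusted p = 0.285) and the endothelial CLDN5, which is also on the endothelium list, by 0.39 ± 0.27 (limma adjusted p = 0.583). Of 9 other membrane proteins of the tight junction, 1 had an unadjusted p under 0.05. Of these, LSR, which draws tricellulin to tricellular corners, read 8.59, 8.12 and 8.28 in experiment 1 and 8.53, 8.09 and 8.16 in experiment 2 (-0.45 ± 0.19 in p53 on, limma adjusted p = 0.314), and MARVELD3 differed by 0.58 ± 0.27 (limma adjusted p = 0.371).

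Of 9 desmosomal genes tested, 1 had an unadjusted p under 0.05, and the median was 0.14. The plakin PPL was at 0.55 ± 0.20 (limma adjusted p = 0.253) and PERP, a known p53 target, at 0.33 ± 0.26 (limma adjusted p = 0.638). DSG3, a desmosomal cadherin of stratified epithelia, was left out as dim on average, but read 1.71 in p53 off, 5.10 in p53 on and 2.21 after recovery in experiment 1, and 2.77, 4.96 and 3.06 in experiment 2. It is named because of these values. With control set to the dim value DSG3 was at least 2.67-fold higher in p53 on, a description with no test. In the fit with no filter on low values its difference was 2.8 ± 0.41 (limma adjusted p = 0.0398). Its control signals there were under the dim value, so that size is not exact.

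Of 13 tested regulators of epithelial junction genes, 1 had an unadjusted p under 0.05 in p53 on. SNAI2, ZEB1 and ZEB2, which repress epithelial junction genes and are named for that role, were under the dim value on average. SNAI1 and TWIST1, named for the same role, were above it, SNAI1 only just (3.68 to 4.27). They differed by -0.09 ± 0.26 and 0.24 ± 0.29 between p53 on and control (limma adjusted p = 0.925 and 0.784). CDX2, which is known to act on CLDN2, differed by 0.22 ± 0.26 between p53 on and control (limma adjusted p = 0.778). Its signals of 3.83 to 4.62 lay near the dim value, so CDX2 was weakly measured and an unchanged level is not shown. OVOL2, a repressor of mesenchymal genes, was at -0.62 ± 0.26 (limma adjusted p = 0.318) and OVOL1 at 0.43 ± 0.30 (limma adjusted p = 0.579). Between recovery and p53 on, limma called 0 of all 66 without the block, with 9 at an unadjusted p under 0.05, against 12.3% of all genes. With the block 2 were called higher and 5 lower, against 7.24% of all genes either way. GRHL2 (0.69 ± 0.28) and ELF3 (-0.87 ± 0.29), both epithelial transcription factors named after their values were seen, were 2 of these (limma adjusted p = 0.373 and 0.27, and 0.0472 and 0.0402 with the block).

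For CLDN1 the experiments lay farther apart than the groups. CLDN1 was the only 1 of the 10 whose experiments were at least 1 log2 unit apart the same way in all 3 groups, and 1.32% of all genes tested were. Among the 66 other junction genes EPCAM was the only 1, with experiment 2 lower by 1.17 to 1.59 log2 units. CLDN4, CLDN7, CLDN12 and F11R were lower in experiment 2 in all 3 groups, by at most 0.58, and TJP1 and CLDN15 were higher in all 3, by at most 0.45. With 2 experiments these differences describe those experiments alone.

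**Figure D5:**
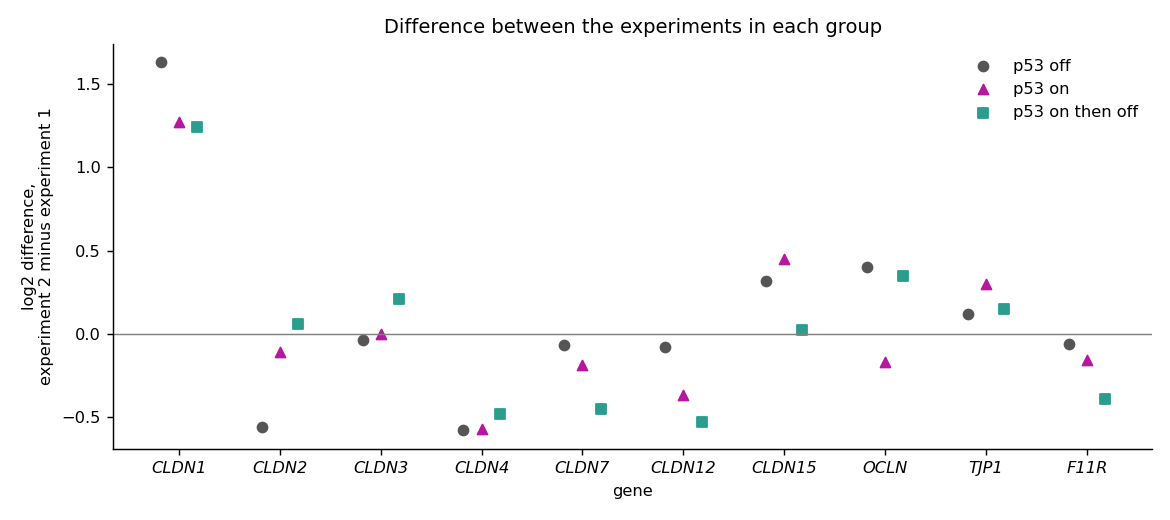
Log2 difference between experiment 2 and experiment 1 (vertical axis) for each gene (horizontal axis) in p53 off (circles), p53 on (triangles) and p53 on then off (squares), 1 array per experiment and group. CLDN1 lies at 1.24 to 1.63, and the other 9 genes lie between -0.58 and 0.45.

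The profiles most like that of CLDN2 over the 6 arrays were sought among all genes tested. Each profile was centred on its own mean, and likeness was the root mean square difference, where the centred CLDN2 profile itself has a root mean square of 0.848 log2 units. The 5 nearest were USP28, a deubiquitinase, at 0.262, GINS2, a subunit of the replicative helicase, at 0.272, GDA, which encodes guanine deaminase, at 0.275, the ERK phosphatase gene DUSP6 at 0.288, and ATAD5, which unloads the replication clamp, at 0.304. USP28 read 7.63, 5.86 and 7.15 in experiment 1 and 7.47, 6.02 and 7.17 in experiment 2. The choice of 5 held under 2 other scalings of the arrays, but 1 of the 5 was kept when dim probe sets were dropped and 0 when probe sets were averaged.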

How the data were processed

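The deposited table holds log2 signals, a scale inferred because its values run from -0.85 to 13.14. How the authors corrected background and normalized the arrays, and with which program, was not given in the sources read. Column medians lay between 5.24 and 5.31, so no scaling was added. Probe sets naming exactly 1 gene (224320 of 257430) entered the analysis, leaving out 10159 with several symbols and 22951 without one. They were summarised per gene and array by their median. The dimmest 25% of 18701 genes by mean signal (up to log2 3.62) were left out, leaving 14025, among them all 10 members.

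Differences were fitted in R 4.3.3 with limma 3.58.1, the 3 groups as 1 factor over 6 arrays, with Benjamini-Hochberg adjustment over all genes tested. The sign and size of fitted differences were checked on simulated data. Those data held no difference between experiments, so the check does not cover the SE or calls on these arrays. Precision is limited by the number of arrays. With 2 arrays against 2, an exact permutation test cannot pass 0.05. Deviations of same-numbered arrays from their group means correlated across genes at 0.496, 0.551 and 0.63, so the experiment number in the labels was taken to pair the samples. Only the fit with the block uses that pairing. The SE and calls given without mention of the block come from the fit that ignores it. Members and lists were chosen with earlier results of these data known. Named genes were the members, list genes called without the block, the 2 per list with the smallest p in p53 on, the 5 nearest CLDN2 (small RNAs, pseudogenes and uncharacterised loci left out), and MDM2, CDKN1A, CIRBP and RBM3. Others are marked as named for their role or after their values were seen. A planned description of protein sequences was not made. Listed genes without a value of their own were not analysed here.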

Additional observations from a re-analysis of the deposited data

How the results depend on the processing

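In the 4 settings that change the gene values, 111 of 120 differences of the 10 genes stayed within 1 SD between replicates of the reported value and 9 moved further, 8 of them with probe sets averaged. The block, the fit of 2 groups and the filters leave a gene's difference as it is and change only its error and its call. With 1 array left out, CLDN4 in p53 on against control lay between 0.62 and 1.19. Averaging probe sets gave -1.59 for CLDN2 in p53 on against control and 0.87 in recovery against p53 on. The 2 CLDN2 probe sets that were not over 1 log2 unit lower gave -0.05 alone, a choice made after seeing the data. Genes called in p53 on against control numbered 208, and 1607 with the replicate block, 50 in the fit of only the 2 groups compared, 478 with probe sets averaged, 113 with no filter, and 3 to 50 with 1 array left out. For recovery against p53 on they numbered 60, and 1015 with the block, 0 with only the 2 groups compared, 182 with probe sets averaged, and 0 to 4 with 1 array left out. For recovery against control they numbered 4, and 84 with the block and 1 to 3 with 1 array left out. Of the 66 other junction genes tested, 1 was called in p53 on, 8 with the block and 2 with probe sets averaged (MAGI3 the second, lower). With only the 2 groups compared 0 of the 66 were called, and 0 with no filter. DSG3, which is not among the 66, was called higher in p53 on with no filter. In recovery against p53 on, 7 of the 66 were called with the block. Of the 10 genes, 1 was called in p53 on, 2 with the block, 0 with only the 2 groups compared and 0 with 1 array left out, and 2 in recovery against p53 on with the block. The cause of these shifts was not tested, beyond fewer arrays in the smaller fits.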
